A study of Mus musculus with 24 samples.

Results

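Messenger RNAs of 44 lysosomal hydrolases and their activators were followed in mouse embryonic fibroblasts (MEFs) given an activator of AMPK or an inhibitor of MTOR. The 44 genes were taken by name from a table of 55487 genes, by a rule that names the genes and uses no measured value, although the list was drawn up with earlier results of these data known. By the reaction each protein carries out or assists, they were sorted into 14 proteases, 11 glycosidases, 2 other glycan enzymes, 5 sulfatases, 7 lipid enzymes, 3 activator or lipid transfer proteins and 2 phosphatases. Polyadenylated RNA was sequenced from 24 libraries in 6 groups of 4. Wild type (WT) and AMPK KO MEFs each received DMSO (control), MK8722 or Torin-1. MK8722 is an allosteric activator of AMPK, the kinase that senses a fall in cellular energy, and Torin-1 is a catalytic-site inhibitor of MTOR, the growth kinase. The AMPK KO cells lack both genes for the catalytic subunit, Prkaa1 and Prkaa2, and are a separate line from the WT cells. The WT libraries came from passages 12 to 15 and the AMPK KO libraries from passages 16 to 19 of 1 line each, so p-values measure the spread between cultures of a line and may be partly technical.

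Lysosomal hydrolases are made in the endoplasmic reticulum, tagged with mannose 6-phosphate in the Golgi and carried by receptors to the acidic lysosome, where they cut proteins, glycans, sulfate esters and lipids into units that the cell reuses. Activators such as the saposins and the GM2 activator lift lipids out of membranes so that an enzyme can reach them. Many of these genes carry a CLEAR element, built around the letters CACGTG, which the transcription factors TFEB and TFE3 bind. MTOR complex 1 phosphorylates TFEB and TFE3 and keeps them in the cytosol. The design asks whether hydrolase mRNAs respond to AMPK activation and to MTOR inhibition, and whether either response differs when AMPK is missing.

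Total estimated counts ran from 26900240 to 34192685 per library and RNA integrity numbers from 9.7 to 10. Of the 44 genes, 43 passed the filter on low counts. The exception was Ctss, cathepsin S of antigen-presenting cells, which had 0 or 1 count in each library. Of 10 fibroblast markers 7 were over 1 TPM with DMSO in WT and 6 in AMPK KO, where Thy1 was not, with TPM being transcript abundance corrected for length and scaled to the same sum in every library. Markers of macrophages and osteoclasts summed to between 1.79 and 4.34 TPM in any library, with Adgre1 and Tyrobp at 0 throughout. Prkaa1 and Prkaa2 mRNA was still counted in AMPK KO libraries, at 23.1 to 31.8 and 0.468 to 1.26 TPM, against 24.7 to 29.1 and 0.602 to 1.73 TPM in WT, so the mRNA level does not check the genotype labels. In bulk RNA, fewer cells of a type and less RNA per cell cannot be told apart.

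The promoters are shown first because CACGTG is the core of the CLEAR element. RefSeq promoter windows (GRCm38.p6, 250 bases before to 50 after a start) were found for 38 of the 44 members. CACGTG, which reads the same on both strands, occurred in the windows of 12 of these 38 members (31.6%) and of 2187 of 27025 genes overall (8.09%). The longer TCACGTGA, which contains it and is also its own reverse complement, occurred in 4 members (10.5%) against 1.12% of genes, and GTCACGTG, searched on both strands and again overlapping, in 8 (21.1%) against 2.55%. Stretches before the start are shown for 7 members described below, with CACGTG in capitals.
Dpp7, chr2:25356378-25356427, minus strand: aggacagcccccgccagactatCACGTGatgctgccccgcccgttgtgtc
Ctsa, chr2:164833739-164833772, plus strand: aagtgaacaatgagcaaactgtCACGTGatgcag
Naglu, chr11:101069999-101070048, plus strand: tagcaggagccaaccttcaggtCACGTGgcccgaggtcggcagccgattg
Arsa, chr15:89477425-89477462, minus strand: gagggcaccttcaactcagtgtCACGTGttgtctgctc
Ctsf, chr19:4855064-4855113, plus strand: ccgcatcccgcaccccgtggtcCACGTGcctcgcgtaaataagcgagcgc
Gla, chrX:134601205-134601254, minus strand: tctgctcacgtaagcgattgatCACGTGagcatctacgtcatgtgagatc
Glb1, chr9:114401008-114401057, plus strand: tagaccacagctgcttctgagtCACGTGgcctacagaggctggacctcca
The hexamer began 73 bases before the start in Dpp7 and Naglu, 12 in Ctsa, 16 in Arsa, 79 in Ctsf, 227 in Gla, which held another at 194, and 48 in Glb1. The other 5 members with the hexamer were Ctsd, Ctsl, Gaa, Lgmn and Sgsh. A match is only a run of letters, and its absence says nothing about binding elsewhere.

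In DMSO-treated WT cells the members together held 1994 ± 41.4 TPM (SD, n = 4). Psap, the saposin precursor, was highest at 341 ± 13.3 TPM, followed by the cathepsins Ctsl at 200 ± 22.2, Ctsb at 164 ± 8.31 and Ctsd at 158 ± 8.56 TPM, of which Ctsb and Ctsd differed by less than their spread. Proteases made up 48.5 ± 1.13% of this pool. At the other end Ctso, Ctsk and Acp5 lay under 1 TPM, with Acp5 at 0. MK8722 took the WT pool to 2909 ± 50.8 TPM and Torin-1 to 2585 ± 23.8 TPM, and the libraries of the 3 WT groups did not overlap. The AMPK KO pool was 1855 ± 90.4 TPM with DMSO and 1861 ± 99.5 TPM with MK8722, groups that overlapped, against 2529 ± 229 TPM with Torin-1. The libraries of the last group were spread widely, at 2691, 2230, 2725 and 2472 TPM, with replicate 2 the lowest. As CPM the ratios to DMSO were smaller with Torin-1, 1.21 in WT and 1.27 in AMPK KO, than as TPM, 1.30 and 1.36. For MK8722 in WT they were 1.41 as CPM and 1.46 as TPM. CPM are TMM-scaled counts without length correction, and TPM carries length correction but no TMM scaling. The TMM factors were 0.988 to 1.02 with Torin-1 and 0.932 to 0.941 with DMSO in WT. In AMPK KO they were 1.061 to 1.099 and 1.018 to 1.058. The part of either scaling step in the gap was not tested.

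**Figure D1:**
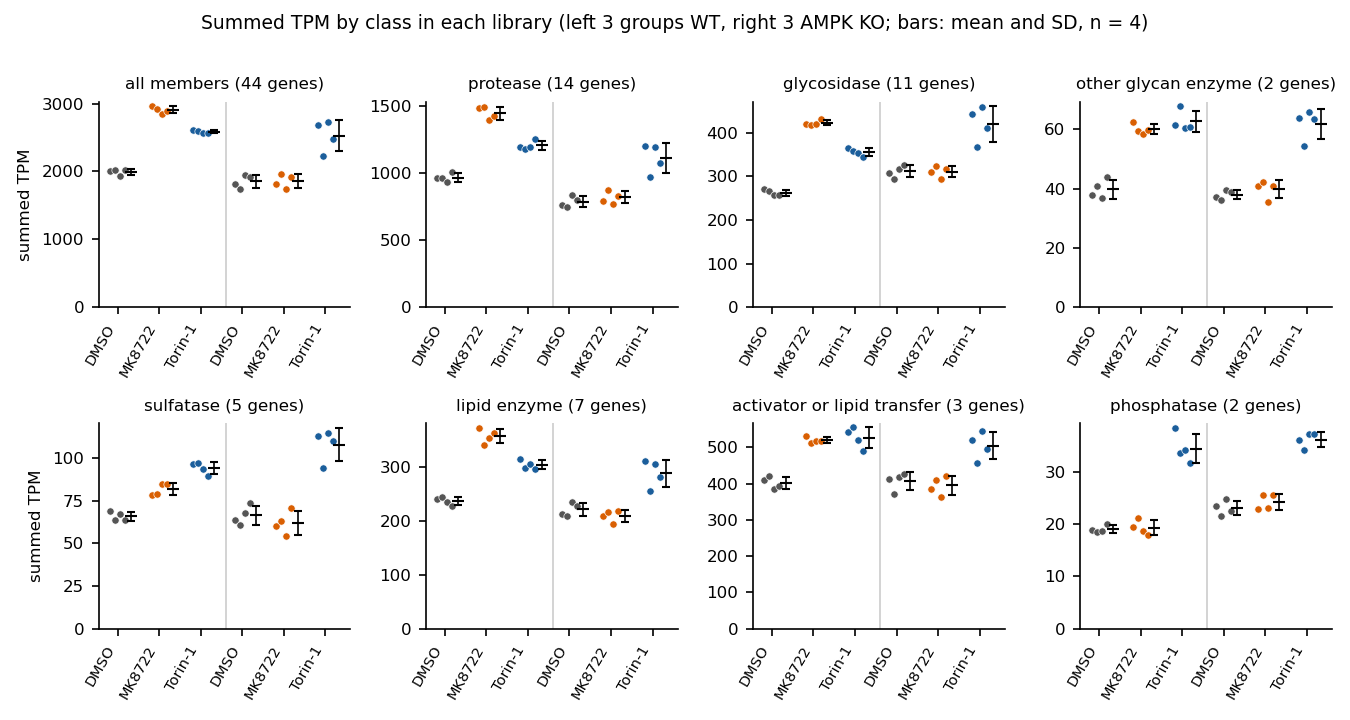
Summed TPM (y axis, from 0) of all members and of each class in every library, with DMSO in grey, MK8722 in orange and Torin-1 in blue, WT to the left and AMPK KO to the right of the line, and mean and SD (n = 4) as bars. All 4 WT MK8722 libraries sit above all 4 WT DMSO libraries for the whole set, while the MK8722 and DMSO libraries of AMPK KO cells overlap.

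The classes did not share the rise equally. With MK8722 in WT cells the summed TPM of glycosidases was 1.61 times that with DMSO, of lipid enzymes 1.51 times and of proteases 1.5 times, but of sulfatases only 1.24 times and of phosphatases 1.01 times. With Torin-1 in WT cells phosphatases stood at 1.81 times, other glycan enzymes at 1.57, sulfatases at 1.43, glycosidases at 1.35, activators at 1.31, lipid enzymes at 1.28 and proteases at 1.25 times. This order depended on the scale, since as CPM sulfatases stood at 1.21 times, below glycosidases at 1.29 and activators at 1.23. Torin-1 in AMPK KO cells gave 1.63 times for other glycan enzymes, 1.62 for sulfatases, 1.57 for phosphatases and 1.41 for proteases. Glycosidases stood at 1.35, lipid enzymes at 1.30 and activators at 1.24 times there. As CPM the AMPK KO values were 1.44 times for sulfatases and 1.31 times for proteases. These ratios of sums are weighted by the most abundant member of each class, and no test was run on them.

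Gene by gene, 27 of the 43 tested members rose with MK8722 in WT cells and 0 fell, by edgeR's quasi-likelihood test with Benjamini-Hochberg adjustment over all 15828 genes tested, where a call required both an adjusted p below 0.05 and a change of 1.2-fold or more. Among all genes 10.0% rose and 5.66% fell by the same rule. The members' median log2 fold change was 0.49, beside -0.002 for all genes. No member was lower at an unadjusted p under 0.05, and DESeq2 also called 27 higher and 0 lower. With Torin-1 in WT cells 21 members rose (26.6% of all genes) and 0 fell (21.1% of all genes), with 2 lower at an unadjusted p under 0.05, a median of 0.33 beside 0.04 for all genes, and 21 higher and 0 lower by DESeq2. In AMPK KO cells 0 members were called with MK8722 in either direction, and 0.866% of all genes rose and 0.695% fell. There, 4 members were higher and 2 lower at an unadjusted p under 0.05, beside 2610 of all 15828 genes in either direction. DESeq2 called 0 members, and the members' median was -0.02. With passage as a block 1 member, Idua, was called higher with MK8722 in AMPK KO and 0 lower. Among all genes 414 rose and 315 fell with that block. With Torin-1 in AMPK KO cells 22 members rose (25.9% of all genes) and 1 fell (17.6% of all genes), with a median of 0.31 beside 0.06. Without replicate 2 of that Torin-1 group 21 rose. The 2 drug comparisons within a line share their 4 DMSO libraries. The summed fibroblast markers were also higher with Torin-1, at 8304 to 9860 TPM against 5803 to 7521 TPM with DMSO in WT and at 4454 to 4832 against 2938 to 3489 TPM in AMPK KO. Of the 8 tested markers of that list 4 rose and 2 fell in WT, and 4 rose and 3 fell in AMPK KO. Summed epithelial markers were 1.43 to 2.66 against 0.816 to 1.21 TPM in WT, where both tested markers rose, and 4.09 to 5.61 against 2.24 to 3.32 TPM in AMPK KO, where 1 of 2 did. Both tested markers of macrophages and osteoclasts fell with Torin-1 in WT, and 1 of 2 in AMPK KO. Of 3 tested endothelial markers 1 rose with each drug in WT and 1 with Torin-1 in AMPK KO. Summed endothelial markers were 1.42 to 2.33 TPM with MK8722 in WT against 0.240 to 0.482 TPM with DMSO. The part of these lists in the drug results was not tested.

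**Figure D2:**
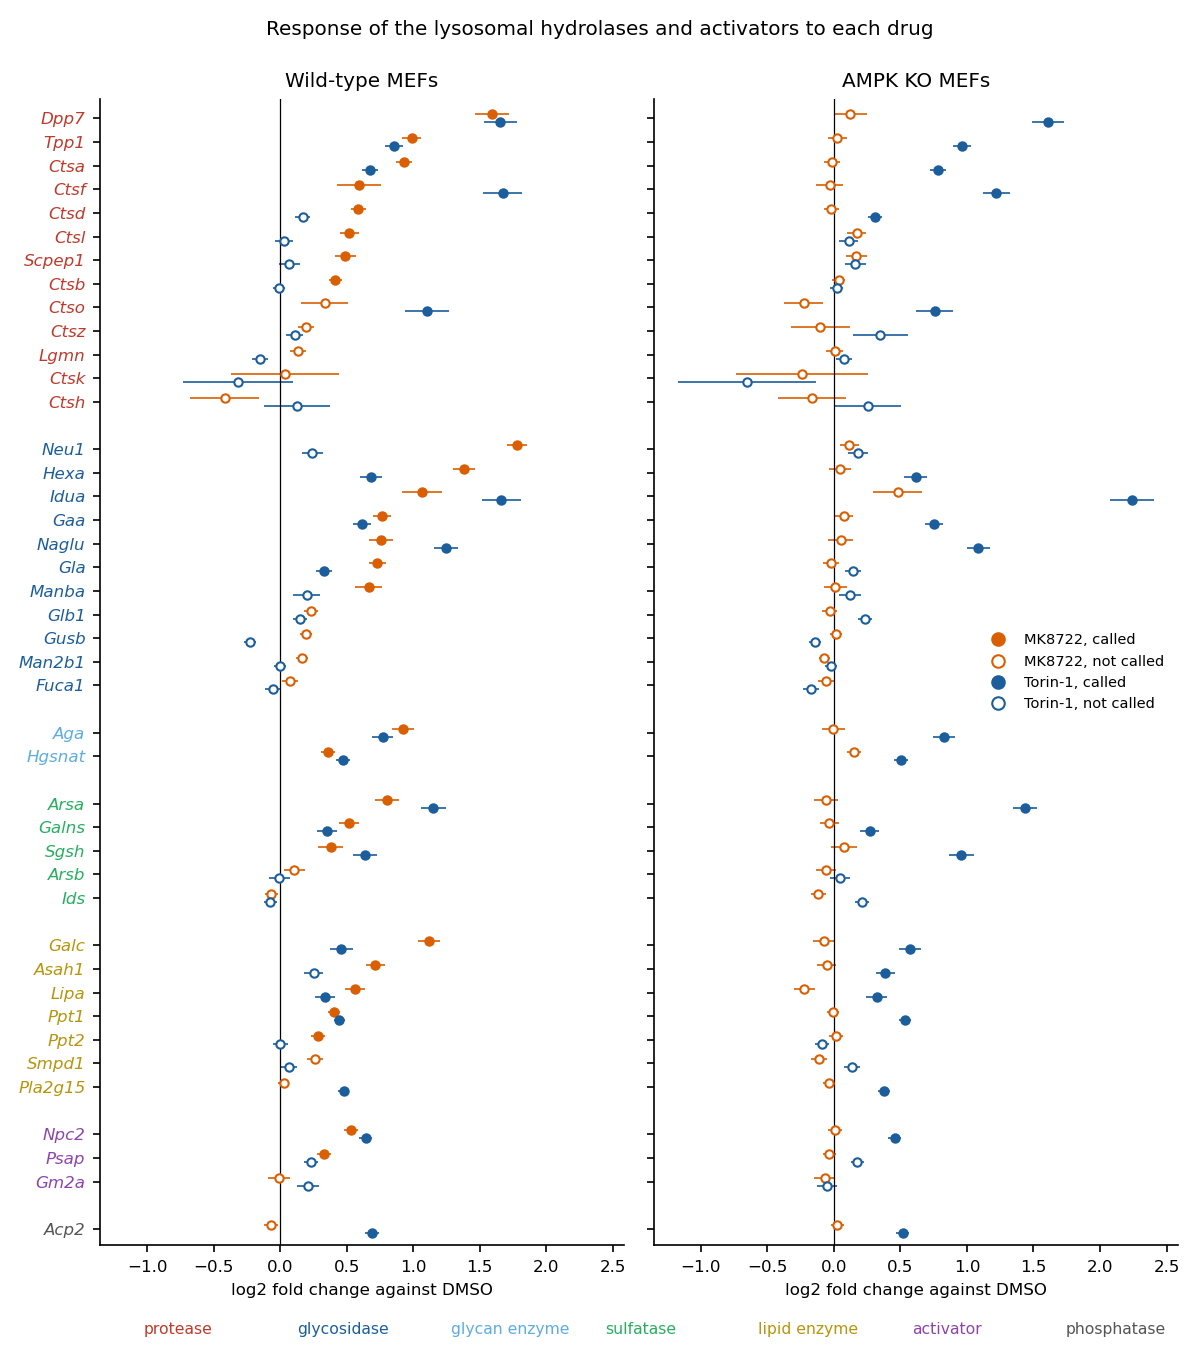
Log2 fold change against DMSO (x axis; points with SE bars) of the 42 tested members other than Acp5, grouped by class and ordered within a class by the MK8722 response in WT cells; orange is MK8722, blue is Torin-1 and filled points passed the call. In WT cells both colours lie mostly to the right of 0, from Neu1 at 1.78 with MK8722 downward. In AMPK KO cells all orange points are open and most lie near 0, and most blue ones lie to the right. Ctsk at -0.65 is the farthest left, with only 4 to 5 counts per AMPK KO Torin-1 library.

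Among the proteases, 8 of 13 rose with MK8722 in WT, 5 with Torin-1 in WT and 6 with Torin-1 in AMPK KO, or 61.5%, 38.5% and 46.2%, beside 10.0%, 26.6% and 25.9% of all genes. Dpp7, which removes dipeptides from peptide ends, had the largest rise of the class with MK8722 in WT and with Torin-1 in AMPK KO. Its level in the WT DMSO libraries was 12.4, 12.9, 10.4 and 11.7 CPM, in those with MK8722 39.7, 37.7, 30.9 and 34.6 CPM, and with Torin-1 36.6, 30.6, 40.6 and 41.4 CPM. Both drugs thus placed every library well above the DMSO group, with log2 fold changes of 1.59 ± 0.13 (SE; edgeR adjusted p = 1.5e-09) for MK8722 and 1.65 ± 0.12 (edgeR adjusted p = 6.69e-11) for Torin-1. The AMPK KO values of Dpp7 were 14.6, 15.2, 15.0 and 15.6 CPM with DMSO, 16.3, 17.5, 14.9 and 17.0 CPM with MK8722, and 54.1, 33.5, 53.6 and 42.8 CPM with Torin-1. The MK8722 and DMSO groups overlapped in these cells (log2 fold change 0.12), whereas Torin-1 raised Dpp7 by 1.61 ± 0.12 (edgeR adjusted p = 1.06e-10). The leading Dpp7 transcript of the 10 annotated carried 46.5% of the gene's TPM in WT with DMSO, 52.8% with MK8722 and 64.7% with Torin-1. In AMPK KO these means were 56.5%, 55.3% and 62.4%, and the DMSO libraries, from 45.4% to 68.7%, overlapped both other groups.

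Ctsa, the serine carboxypeptidase that also protects β-galactosidase and sialidase, was measured at 110.5, 119, 100.3 and 106 CPM with DMSO in WT, 226, 204, 193 and 207 CPM with MK8722, and 170.3, 172, 169 and 183 CPM with Torin-1. The 3 groups did not overlap, and the log2 fold changes were 0.93 ± 0.061 (edgeR adjusted p = 8.6e-11) and 0.67 ± 0.061 (edgeR adjusted p = 1.34e-09). Ctsa in AMPK KO cells stayed between 106 and 110.4 CPM over the 8 DMSO and MK8722 libraries, and lay at 205, 162, 202 and 181 CPM with Torin-1 (log2 fold change 0.78 ± 0.061, edgeR adjusted p = 1.59e-10). Ctsa shares 495 exonic bases with Pltp on the opposite strand, and the strand setting of the counting was not given in the sources used here, so its reads may include some of the partner's.

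Ctsf, a cysteine cathepsin, was a low-level gene in WT cells with 1.26, 1.06, 1.15 and 1.26 CPM with DMSO and 2.49, 1.57, 1.61 and 1.53 CPM with MK8722. The first MK8722 library carried much of that difference (log2 fold change 0.59 ± 0.17, edgeR adjusted p = 0.00886), and without it the adjusted p was 0.0771. Torin-1 gave 3.77, 4.25, 3.93 and 3.20 CPM, above every DMSO and MK8722 library (log2 fold change 1.67 ± 0.15, edgeR adjusted p = 8.65e-10). The rise with Torin-1 in AMPK KO cells was 1.22 ± 0.10 (edgeR adjusted p = 5.78e-10), from 9.52 to 12.0 CPM with DMSO to 22.9 to 26.0 CPM.

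The remaining proteases varied in their response. Tpp1, the tripeptidyl peptidase lost in a neuronal ceroid lipofuscinosis, rose with both, by 0.99 and 0.86 on the log2 scale in WT. The endoproteases Ctsb, Ctsd and Ctsl and the carboxypeptidase Scpep1 rose with MK8722 in WT, by 0.42, 0.59, 0.52 and 0.49, and had WT Torin-1 values of -0.01, 0.17, 0.03 and 0.07 that were not called. Ctso showed the opposite order, with 0.34 for MK8722 (not called) and 1.10 ± 0.17 for Torin-1 (edgeR adjusted p = 3.44e-06) in WT. Ctsz, Ctsh, Ctsk and Lgmn passed the call with neither drug in either line, and of these Ctsh and Ctsk were at most 1.90 TPM in any group mean. In the AMPK KO libraries Ctsz had 8 to 27 counts and Ctsk 1 to 15, so little can be said of their drug response there. Exons of Ctsb overlap those of Fdft1 on the opposite strand (774 bases) and exons of Ctsd those of Gm49369 on the same strand (808 bases), so reads could be split there.

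**Figure D3:**
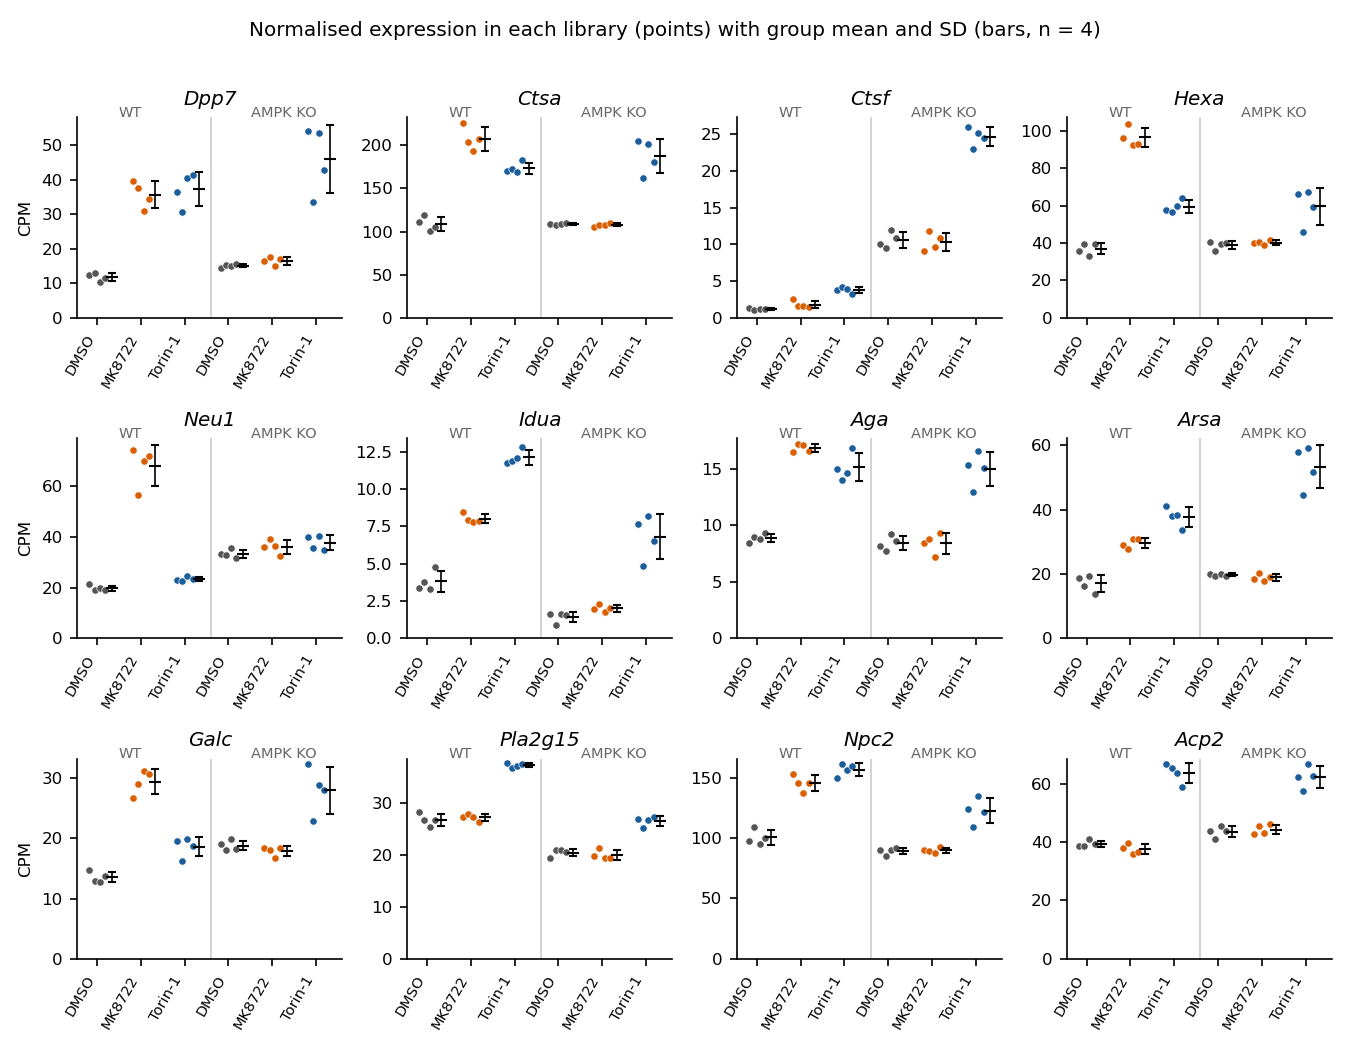
Normalised CPM (y axis, from 0) of 12 members in each of the 24 libraries, coloured by treatment as DMSO grey, MK8722 orange and Torin-1 blue, with WT left and AMPK KO right of the line and group mean and SD (n = 4) as bars. Neu1 and Hexa are highest with MK8722 in WT, Idua and Arsa rise further with Torin-1, Pla2g15 and Acp2 lie at the DMSO level with MK8722, and replicate 2 of the AMPK KO Torin-1 group is the lowest of its group for Dpp7, Hexa and Idua.

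Among the glycosidases, 7 of 11 rose with MK8722 in WT, 5 with Torin-1 in WT and 4 with Torin-1 in AMPK KO. These shares were 63.6%, 45.5% and 36.4%, beside the 10.0%, 26.6% and 25.9% of all genes. Neu1, the sialidase that trims terminal sialic acids, had the largest called change with MK8722. Its WT libraries held 21.3, 19.1, 19.7 and 19.2 CPM with DMSO and 74.2, 56.5, 70.1 and 72.0 CPM with MK8722, a log2 fold change of 1.78 ± 0.075 (edgeR adjusted p = 6.67e-14). With Torin-1 they held 23.1, 22.7, 24.5 and 23.5 CPM, just above the DMSO group, and the log2 fold change of 0.24 ± 0.076 was under the fold threshold. Neu1 therefore lay at MK8722 levels that no other group reached, since AMPK KO libraries ran from 31.6 to 40.5 CPM under the 3 treatments.

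Hexa, the α subunit of β-hexosaminidase that breaks down GM2 ganglioside, rose with both drugs. The WT values were 35.9, 39.3, 33.2 and 39.7 CPM with DMSO, 96.5, 103.7, 92.6 and 93.2 CPM with MK8722, and 57.5, 56.5, 59.7 and 64.0 CPM with Torin-1. The groups formed 3 separate levels, with log2 fold changes of 1.38 ± 0.085 (edgeR adjusted p = 4.45e-11) for MK8722 and 0.68 ± 0.085 (edgeR adjusted p = 2.46e-07) for Torin-1. Hexa in AMPK KO cells lay at 35.7 to 40.5 CPM with DMSO and 38.9 to 41.8 CPM with MK8722, and at 66.4, 45.8, 67.3 and 59.2 CPM with Torin-1 (log2 fold change 0.62 ± 0.085, edgeR adjusted p = 1.31e-06).

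Idua, which removes iduronic acid from heparan and dermatan sulfate, had the largest response to Torin-1 in AMPK KO cells. It went from 1.64, 0.906, 1.65 and 1.56 CPM with DMSO to 7.68, 4.86, 8.20 and 6.5 CPM with Torin-1 there (log2 fold change 2.24 ± 0.17, edgeR adjusted p = 8.42e-11), and MK8722 gave 1.96, 2.32, 1.74 and 2.03 CPM, above every DMSO library but not called (log2 fold change 0.48 ± 0.18, edgeR adjusted p = 0.17). With passage as a block that MK8722 change was called. In WT cells Idua was at 3.37, 3.80, 3.31 and 4.8 CPM with DMSO and 8.49, 7.90, 7.82 and 7.85 CPM with MK8722. Torin-1 gave 11.7, 11.9, 12.1 and 12.8 CPM there. The 3 WT groups were again separate, at log2 fold changes of 1.06 ± 0.15 (edgeR adjusted p = 8.96e-06) and 1.66 ± 0.15 (edgeR adjusted p = 9.98e-10). Naglu, which removes N-acetylglucosamine from heparan sulfate, likewise stood at 0.76 with MK8722 and 1.25 with Torin-1 in WT, and Gaa, the acid glucosidase that degrades glycogen, at 0.77 and 0.62. Gla, whose product cleaves terminal α-galactose from glycolipids, rose by 0.73 and 0.33, and Manba, the β-mannosidase, by 0.67 with MK8722 only by the call. Glb1, Gusb, Man2b1 and Fuca1 passed in none of the 4 drug comparisons, with Gusb at 0.19 with MK8722 and -0.23 with Torin-1 in WT.

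Both other glycan enzymes rose in 3 of the 4 drug comparisons. Aga, which splits the link between asparagine and a glycan, measured 8.46, 9.0, 8.79 and 9.29 CPM with DMSO in WT, 16.5, 17.2, 17.2 and 16.6 CPM with MK8722 and 15.0, 14.0, 14.7 and 16.9 CPM with Torin-1. Each drug's libraries cleared the DMSO group (log2 fold changes 0.92 ± 0.082 and 0.77 ± 0.082, edgeR adjusted p = 1.01e-08 and 2.07e-08). Torin-1 raised Aga in AMPK KO cells by 0.83 ± 0.082 (edgeR adjusted p = 8.24e-09), and the MK8722 value was -0.003. Hgsnat, the membrane acetyltransferase of heparan sulfate breakdown, rose by 0.36, 0.47 and 0.50 in the same 3 comparisons.

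Among the sulfatases, Arsa, Galns and Sgsh rose with both drugs in WT and with Torin-1 in AMPK KO cells, while Arsb and Ids passed in none of the 4 comparisons. Arsa, which desulfates sulfatide, was at 18.8, 16.4, 19.2 and 13.7 CPM with DMSO in WT, 29.0, 27.8, 30.8 and 30.8 CPM with MK8722 and 41.1, 38.1, 38.4 and 33.5 CPM with Torin-1. The groups stepped upward without overlap, with log2 fold changes of 0.80 ± 0.092 (edgeR adjusted p = 4.99e-07) and 1.15 ± 0.091 (edgeR adjusted p = 1.4e-10). In AMPK KO cells Arsa was at 19.2 to 20.1 CPM with DMSO, 17.8 to 20.2 CPM with MK8722 and 57.8, 44.6, 59.1 and 51.7 CPM with Torin-1 (log2 fold change 1.44 ± 0.089, edgeR adjusted p = 5.11e-12). Sgsh, the heparan sulfamidase, had 0.38 with MK8722 and 0.64 with Torin-1 in WT, and 0.96 with Torin-1 in AMPK KO cells. Galns rose by 0.52, 0.35 and 0.27, and the last of these calls, a fold of 1.21, was lost in 7 of 8 fits that left out 1 library. The edgeR adjusted p was at most 0.026 in those fits and the fold was under 1.2 in the 7.

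Among the lipid enzymes, 5 of 7 rose with MK8722 in WT, 4 with Torin-1 in WT and 5 with Torin-1 in AMPK KO, which is 71.4%, 57.1% and 71.4% beside 10.0%, 26.6% and 25.9% of all genes. Galc, which removes galactose from galactosylceramide, had 14.7, 12.9, 12.8 and 13.7 CPM with DMSO in WT, 26.7, 29.1, 31.2 and 30.8 CPM with MK8722, and 19.6, 16.3, 19.9 and 18.7 CPM with Torin-1. MK8722 and Torin-1 libraries were both clear of the DMSO group, at log2 fold changes of 1.12 ± 0.084 (edgeR adjusted p = 7.08e-10) and 0.46 ± 0.085 (edgeR adjusted p = 5.9e-05). In AMPK KO cells the Torin-1 value was 0.57 ± 0.081 (edgeR adjusted p = 2.1e-06) and the MK8722 value -0.07. Pla2g15, the lysosomal phospholipase, differed from Galc in that only Torin-1 moved it by the call. It was at 28.1, 26.7, 25.3 and 26.6 CPM with DMSO in WT, 27.2, 27.8, 27.3 and 26.3 CPM with MK8722, and 37.5, 36.7, 37.0 and 37.4 CPM with Torin-1 (log2 fold change 0.48 ± 0.043, edgeR adjusted p = 1.18e-09). Asah1, acid ceramidase, rose by 0.72 with MK8722 in WT and by 0.39 with Torin-1 in AMPK KO, and its WT Torin-1 value of 0.25 was not called. Lipa, which hydrolyses cholesteryl esters, and Ppt1, which removes palmitate from proteins, rose in 3 comparisons, by 0.56, 0.34 and 0.32 and by 0.40, 0.44 and 0.53. Exons of Ppt1 overlap 129 bases of the abundant Cap1 on the opposite strand. Ppt2 rose by 0.28 with MK8722 in WT, a call lost in 3 of 8 fits without 1 library, and Smpd1, acid sphingomyelinase, was called with neither drug.

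Psap and Npc2 rose with MK8722 in WT, and Gm2a, the GM2 activator, did not pass in any of the 4 comparisons. Npc2, which hands cholesterol to the NPC1 transporter, measured 97.8, 109, 94.7 and 100.3 CPM with DMSO in WT, 153, 145, 138 and 146 CPM with MK8722 and 149, 162, 157 and 159 CPM with Torin-1. Both treated groups lay above all DMSO libraries (log2 fold changes 0.53 ± 0.051 and 0.64 ± 0.051, edgeR adjusted p = 3.44e-08 and 1.75e-10), and Torin-1 raised it by 0.46 ± 0.051 in AMPK KO cells (edgeR adjusted p = 6.6e-08). Psap rose by 0.33 with MK8722, and its Torin-1 values of 0.23 in WT and 0.18 in AMPK KO were under the fold threshold.

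The phosphatases are represented in WT cells by Acp2 alone. Acp2, the lysosomal acid phosphatase, was at 38.7, 38.6, 40.9 and 39.3 CPM with DMSO in WT, 38.0, 39.7, 36.0 and 36.4 CPM with MK8722 and 66.7, 65.3, 63.5 and 58.7 CPM with Torin-1. Only the Torin-1 group stood apart, at a log2 fold change of 0.69 ± 0.05 (edgeR adjusted p = 3.04e-11), and in AMPK KO cells at 0.52 ± 0.049 (edgeR adjusted p = 4.55e-09). Acp5, the tartrate-resistant phosphatase of osteoclasts and macrophages, had 0 or 1 count in every WT library, so no drug fold is given there. In AMPK KO cells it had 7 to 13 counts per library with DMSO and 3 to 5 with Torin-1, at 0.425, 0.324, 0.214 and 0.360 CPM and 0.123, 0.150, 0.12 and 0.0916 CPM, and was the 1 member that fell (log2 fold change -1.41 ± 0.42, edgeR adjusted p = 0.00681). Acp5 passed the filter on low counts only through the AMPK KO libraries, so its fall is given as a value and nothing rests on it, and it was not tested where 10 counts were required in every library or only the compared libraries were fitted. Exons of Acp2 and Idua overlap those of Ddb2 (652 bases) and Dgkq (124 bases) on the opposite strand, and exons of Glb1 those of Tmppe (165 bases) on the same strand.

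The response to MK8722 was smaller in AMPK KO than in WT cells for 25 of 43 members and larger for 0, by the interaction term of the same fit, against 7.66% and 5.12% of all genes. DESeq2 called 24 and 0, and 0 members were larger at an unadjusted p under 0.05. The median difference was -0.41. Of the 25, Glb1 and Smpd1 had not been called with MK8722 in WT, at 0.23 and 0.26. By class the 25 were 7 proteases, 7 glycosidases, Aga, 2 sulfatases, 6 lipid enzymes and 2 activators. Neu1 had the largest difference, -1.66 ± 0.10 (edgeR adjusted p = 3.73e-10), followed by Dpp7 at -1.47 ± 0.18 (edgeR adjusted p = 3.33e-06) and Hexa at -1.33 ± 0.12 (edgeR adjusted p = 8.36e-08). For Hgsnat, Idua, Scpep1 and Sgsh the difference was between -0.21 and -0.58 and did not pass. In AMPK KO cells 41 of the 43 log2 fold changes with MK8722 were within 0.25 of 0, with a median SE of 0.071. A change under 1.2-fold could not be called in either line. With passage as a block 29 MK8722 responses were smaller and 0 larger in AMPK KO, beside 1585 and 1200 of all 15828 genes.

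The response to Torin-1 was called different between the lines for 1 member, Ids, in the fit without passage, where 4.15% of all genes had a larger and 2.92% a smaller response in AMPK KO cells. Ids, the iduronate sulfatase, was at 71.7, 69.3, 67.1 and 66.1 CPM with DMSO and 66.4, 68.7, 65.3 and 59.8 CPM with Torin-1 in WT, groups that overlapped, and at 24, 25.8, 25.5 and 23.2 against 28.7, 28.0, 27.6 and 29.7 CPM in AMPK KO cells, which did not. The difference of 0.29 ± 0.072 (edgeR adjusted p = 0.0132) was lost in 7 of 16 fits without 1 library, and DESeq2 called 0 members. With passage as a block 4 members had a larger response in AMPK KO cells, Idua, Arsa, Sgsh and Ids, and 1 a smaller, Ctsf. Among all 15828 genes 987 had a larger and 874 a smaller response with that block. For Ids neither within-line change was called in the fit without passage. Its AMPK KO change of 1.16-fold (edgeR adjusted p = 0.00145) was under the fold threshold. In the same fit 5 members had a larger and 5 a smaller response at an unadjusted p under 0.05. Among all 15828 genes 3784 were under 0.05 in either direction. Without Acp5 the members' differences ran from -0.45 in Ctsf to 0.58 in Idua with a median SE of 0.10. The 2 Torin-1 comparisons share no library. Of the 21 members that rose in WT and the 22 in AMPK KO, 20 were the same genes, with Gla called in WT alone and Asah1 and Ctsd in AMPK KO alone. Over 42 members without Acp5 the 2 sets of log2 fold changes had a Pearson r of 0.931, a description across genes that are not independent replicates.

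**Figure D4:**
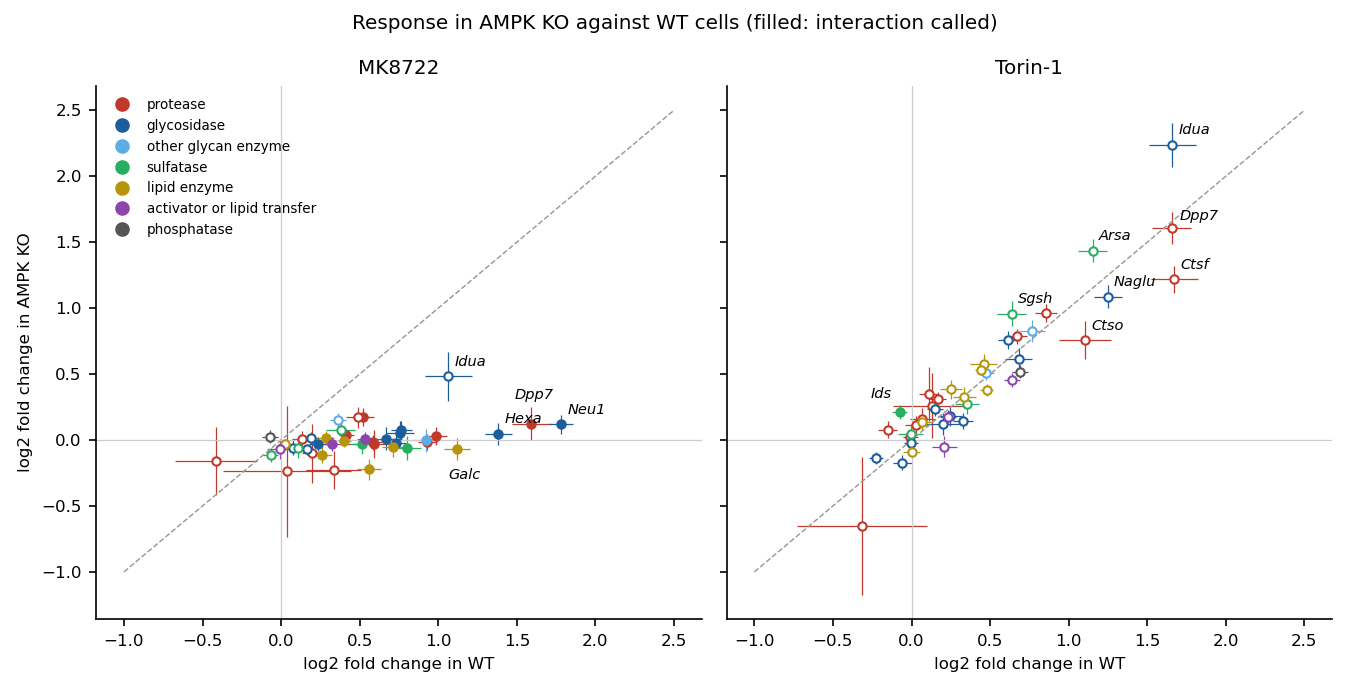
Log2 fold change in AMPK KO (y axis) against that in WT cells (x axis) for 42 members without Acp5, for MK8722 (left) and Torin-1 (right), with SE bars, colours by class, the dashed line of equal response, and filled points where the interaction was called. The MK8722 points lie along y = 0 out to Neu1, and the Torin-1 points lie along the diagonal with Ids the only filled point.

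Between the drugs in WT cells, 7 members were higher (24.5% of all genes) and 13 lower (21.2% of all genes) with Torin-1 than with MK8722. The higher ones were Ctsf, Ctso, Naglu, Idua, Arsa, Pla2g15 and Acp2. The lower ones were the proteases Ctsb, Ctsd, Ctsl, Lgmn and Scpep1, the glycosidases Neu1, Hexa, Gla, Gusb and Manba, and the lipid enzymes Galc, Asah1 and Ppt2. Neu1 led with -1.54 ± 0.074 (edgeR adjusted p = 4.98e-14) and Hexa followed with -0.70 ± 0.083 (edgeR adjusted p = 1.3e-07), while on the other side Ctsf differed by 1.08 ± 0.14 and Acp2 by 0.76. No sulfatase was lower with Torin-1. The labels give no dose or time for the 2 drugs, so the values stand side by side only for the treatments as given.

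In the absence of drug, 12 members were higher in AMPK KO than in WT cells (30.9% of all genes) and 13 lower (26.0% of all genes). These shares, 27.9% and 30.2%, were near those of all genes. Ctsz, the carboxypeptidase cathepsin Z, stood out. Its WT DMSO libraries held 75.9, 73.7, 73.6 and 76.4 CPM and its AMPK KO DMSO libraries 0.523, 0.356, 0.641 and 0.630 CPM, a log2 difference of -7.10 ± 0.11 (edgeR adjusted p = 2.31e-24). All 12 AMPK KO libraries had 8 to 27 Ctsz counts whatever the treatment. On the other side Ctsf was 8.90-fold higher in AMPK KO cells, at 10.0, 9.52, 12.0 and 10.8 CPM (log2 difference 3.15 ± 0.14, edgeR adjusted p = 7.62e-16), so that it had 12.0 TPM there against 1.28 TPM in WT. Acp5, among the 12 higher, was at 0 in WT with DMSO and at least 3.18-fold higher against a floor of 3 counts per library. Acp5 passed the filter on low counts only through the AMPK KO libraries, so nothing rests on this value. Without Acp5, 24 members were called between the lines.

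Each larger class held members on both sides. Among glycosidases Manba was higher, at 13.4, 13.7, 14.7 and 15.4 CPM against 3.69, 3.66, 3.89 and 4.33 CPM (log2 difference 1.88 ± 0.096, edgeR adjusted p = 2.23e-14), and Idua lower by the DMSO values above (-1.41 ± 0.17, edgeR adjusted p = 1.27e-07). Among sulfatases Galns was higher, at 24.8, 24.1, 25.5 and 27.8 CPM against 15.6, 12.5, 14.6 and 13.4 CPM (0.87 ± 0.075, edgeR adjusted p = 2.86e-10), and Ids lower (-1.48 ± 0.052, edgeR adjusted p = 1.52e-17). Ids and Gla lie on the X chromosome, and Xist was at 33.4 to 77.3 TPM in WT and at most 0.0559 TPM in AMPK KO libraries. Gla was not called, at 0.26. Among lipid enzymes Ppt2 was higher by 0.67 ± 0.053, at 46.7, 47.0, 51.7 and 47.3 against 28.5, 29.4, 31.2 and 31.6 CPM (edgeR adjusted p = 6.2e-11), and Lipa lower by the largest amount, at 27, 23.6, 25.5 and 23.1 against 41.8, 42.1, 42.2 and 36.8 CPM (-0.71 ± 0.078, edgeR adjusted p = 1.7e-08). Gm2a was higher, at 37.7, 32.5, 40.1 and 39.8 against 27.9, 27.5, 28.5 and 28.5 CPM (0.42 ± 0.08, edgeR adjusted p = 6.13e-05). In none of these pairs did the libraries of the lines overlap. The summed fibroblast markers were 2938 to 3489 TPM in AMPK KO and 5803 to 7521 TPM in WT cells with DMSO. Of 8 tested fibroblast markers 7 were lower and 1 higher in AMPK KO. Of the tested markers of other lists, 2 of 2 epithelial, 2 of 3 endothelial and 1 of 2 macrophage and osteoclast markers were higher and 0 lower. Among all genes 30.9% were higher and 26.0% lower. The part of these lists in the differences between the lines was not tested. Genotype, line, sex-linked expression and passage cannot be told apart in this comparison.

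**Figure D5:**
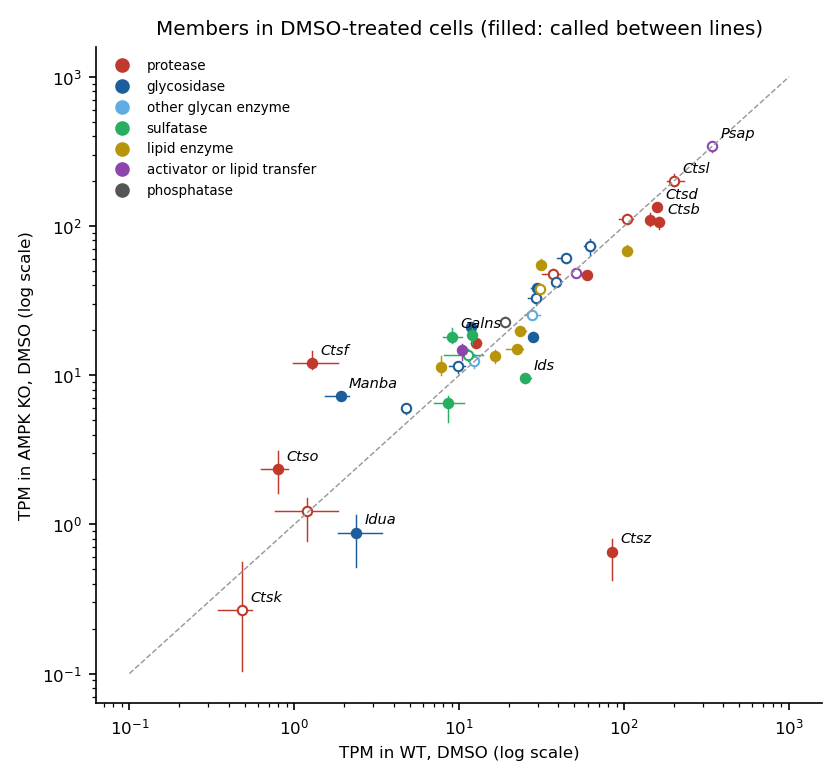
Mean TPM in DMSO-treated AMPK KO (y axis) against WT cells (x axis), both on log scales, for the members above 0 in both groups, with lines from the lowest to the highest library, colours by class, and filled points where the lines differed by the call. Ctsz lies far below the dashed line of equal level and Ctsf, Manba and Ctso above it, whereas Psap and Ctsl lie on it.

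By promoter letters, 10 of the 12 members with CACGTG rose with MK8722 in WT and 12 of the 25 tested members with a window but without it. Their medians were 0.66 and 0.33, and 10.0% of all genes rose. In AMPK KO cells 0 of 12 and 0 of 25 rose with MK8722, beside 0.866% of all genes. With Torin-1 in WT the counts were 8 of 12 and 10 of 25, beside 26.6% of all genes, with medians of 0.63 and 0.23. With Torin-1 in AMPK KO they were 8 of 12 and 10 of 25, beside 25.9%, with medians of 0.77 and 0.18. Members without the hexamer in the window included Neu1, Hexa, Galc and Idua, and those with it included Glb1 and Lgmn, which did not pass with either drug. These are descriptions of groups of genes, with no test, and the share that rose among other genes with CACGTG was not counted.

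Of 14 genes that deliver and mature the hydrolases 9 rose with MK8722 in WT and 0 fell, with 0 higher and 1 lower, Nagpa at -0.27, in AMPK KO cells, and 9 had a smaller response there. The 64.3% that rose in WT stood beside 10.0% of all genes, and the 64.3% with a smaller response in AMPK KO beside 7.66%. In AMPK KO 0.866% of all genes rose and 0.695% fell with MK8722. The 9 that rose in WT were Gnptg, a subunit of the enzyme that adds the mannose 6-phosphate tag, Nagpa, which uncovers it, the receptor Igf2r, the glucocerebrosidase carrier Scarb2, the sulfatase-activating Sumf1, the adaptor Gga2 and the retromer genes Vps35, Vps26a and Vps29, at log2 fold changes from 0.37 to 0.78. With Torin-1 in WT 7 rose and 2 fell, Sort1 at -0.76 and Gga3 at -0.39, and in AMPK KO cells 6 rose and 2 fell. Of the 14 genes these are 50% and 14.3% in WT, beside 26.6% and 21.1% of all genes, and 42.9% and 14.3% in AMPK KO, beside 25.9% and 17.6%. Among cystatins, inhibitors of the cysteine cathepsins, Cstb rose by 0.49 with MK8722 in WT and Cst3 and Cst6 did not pass. Of the transcription factor genes Tfeb, Tfe3 and Mitf, the first 2 fell with MK8722 in WT, by 0.38 and 0.26 on the log2 scale, and Tfe3 fell with Torin-1 in both lines, at -0.49 and -0.46. With Torin-1 Mitf rose in WT, at 0.45. Tfeb fell with Torin-1 in AMPK KO, at -0.46, and was not called in WT, at 0.06. The interaction term called this difference, at -0.52.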

How the data were processed

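Per the labels and the methods of the study, the authors sequenced polyadenylated RNA, aligned reads with STAR to mouse GRCm38, considered unique molecular identifiers and quantified transcripts with Salmon. The deposited gene table holds estimated counts, and the authors' transcript files hold TPM, which is scaled to a fixed sum in each library. Estimated counts were rounded and analysed with edgeR 4.0.16 in R 4.3.3: genes with low counts were removed by filterByExpr, libraries scaled by TMM, and 1 quasi-likelihood model fitted to all 24 libraries and 6 groups, with a common biological coefficient of variation of 0.079. A call required a Benjamini-Hochberg adjusted p below 0.05 and a change of 1.2-fold or more, the thresholds of the study. Fold changes and SE are those of the fitted model. DESeq2 1.42.0 was an alternative.

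The members and lists were chosen with earlier results of these data known. In each class the called member with the largest rise and fall per comparison, and Hexa and Ctsa, are given in full. Gene coordinates and overlaps are from GENCODE M21, promoters from RefSeq. Precision is limited by 4 libraries per group. Replicate numbers did not pair the libraries.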

Additional observations from a re-analysis of the deposited data

Results flagged for a closer look

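Of 260 groups of 4 libraries, 17 held a library whose gap to its nearest neighbour, relative to the range, exceeded Dixon's critical value, and chance gives about 1 in 20. The high libraries were Ctsb in WT Torin-1 replicate 4 (268.8 CPM), Ctsf, Idua and Psap in WT MK8722 replicate 1 (2.492, 8.487 and 757.8 CPM), Ctsl in AMPK KO MK8722 replicate 2 (144.3 CPM), Fuca1 in AMPK KO Torin-1 replicate 3 (46.1 CPM) and Ppt2 in AMPK KO DMSO replicate 3 (51.71 CPM). The low ones were Ctsk in AMPK KO Torin-1 replicate 1 (0.1229 CPM), Glb1 in WT MK8722 replicate 3 (49.64 CPM) and AMPK KO MK8722 replicate 4 (24.27 CPM), Idua in AMPK KO DMSO replicate 2 (0.9063 CPM), and Asah1 and Lipa in WT DMSO replicate 4 (124.6 and 36.76 CPM). Single counts gave the rest, for Ctss in WT MK8722 replicate 4 (0.03326 CPM), AMPK KO MK8722 replicate 1 (0.02963 CPM) and AMPK KO Torin-1 replicate 4 (0.03052 CPM), and for Acp5 in WT Torin-1 replicate 1 (0.03626 CPM).

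A smaller response to MK8722 in AMPK KO than in WT cells was called by the interaction term for 25 members, with these differences in log2 fold change. Proteases were Ctsa at -0.9417, Ctsb at -0.377, Ctsd at -0.6061, Ctsf at -0.6254, Ctsl at -0.3454, Tpp1 at -0.959 and Dpp7 at -1.468. Glycosidases were Hexa at -1.334, Gla at -0.7521, Glb1 at -0.2649, Gaa at -0.6921, Manba at -0.6558, Naglu at -0.7054 and Neu1 at -1.664. Aga stood at -0.9267, and the sulfatases Arsa at -0.861 and Galns at -0.5496. Lipid enzymes were Asah1 at -0.7691, Smpd1 at -0.3725, Galc at -1.189, Lipa at -0.7793, Ppt1 at -0.4101 and Ppt2 at -0.2672. Activators were Psap at -0.3589 and Npc2 at -0.5245. With Torin-1 the 1 such difference was Ids at 0.2863.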

How the results depend on the processing

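No called value changed direction in 3440 values from fits without 1 library or in 4096 from the other alternatives, of which 3355 and 3913 kept their side of the threshold. A fold change of at least 1.5 left 16 members higher with MK8722 in WT, 14 with Torin-1 in WT and 12 with Torin-1 in AMPK KO. It left 7 higher and 7 lower in AMPK KO against WT, and 4 higher and 3 lower with Torin-1 against MK8722. Of the MK8722 responses 16 remained smaller in AMPK KO. The share of all genes at that fold was not counted. Adjusted p alone gave 2 members lower with Torin-1 in WT and 3 in AMPK KO, and in AMPK KO against WT 18 higher. The 1 member with a larger Torin-1 response in AMPK KO became 0 with a fold of 1.5, DESeq2 size factors, the DESeq2 test, library size alone, a length offset, at least 10 counts in every library and the compared libraries alone, and the last gave 1 smaller response. The length offset gave 1 member lower with Torin-1 in WT. At least 10 counts and the compared libraries alone each left 0 lower with Torin-1 in AMPK KO, since Acp5 was not tested there.

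Without 1 library the members lower with Torin-1 in WT ranged from 0 to 1 (1 without WT DMSO replicate 4), and the larger and smaller Torin-1 responses in AMPK KO from 0 to 3 and 0 to 2 (3 without WT DMSO replicate 4, 2 without WT Torin-1 replicate 1). Library size alone moved the median of all genes to 0.14 with Torin-1 in WT, 0.12 in AMPK KO and 0.15 between the lines, with 5174 genes higher and 2493 lower (4204 and 3336 with TMM), 4764 and 2237 (4096 and 2783), and 6073 and 2939 (4891 and 4116), and with 27, 24 and 18 members higher. The split became 4741 and 2524 (3870 and 3359) for Torin-1 against MK8722, 106 and 129 (137 and 110) for MK8722 in AMPK KO, and 418 and 576 (657 and 462) for the difference in Torin-1 response.

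With the replicate number as a block 27 members rose with MK8722 in WT, 21 and 22 with Torin-1, and 25 MK8722 responses were smaller. Deviations of libraries with the same number had a median correlation of -0.01 in AMPK KO and 0.02 in WT, so the number pairs nothing. Passage, at 0.13 and 0.10, exceeded 0.1 in 9 and 6 of 12 pairs. With passage as a block 1 member rose with MK8722 in AMPK KO (Idua), and 4 Torin-1 responses were larger and 1 smaller in AMPK KO. Among all 15828 genes 414 rose with MK8722 in AMPK KO with that block, and 987 Torin-1 responses were larger and 874 smaller. Counts under 10 in some libraries limit what can be said of Acp5, Ctss and Ctsk, and of Ctsz in AMPK KO cells.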
